A study of Mus musculus with 6 samples.

Results

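The genes described here encode the Polycomb group complexes and the H3K27 demethylases that oppose them, as measured in LSK cells, the lin- Sca1+ c-Kit+ fraction of mouse bone marrow in which the stem cells and multipotent progenitors of the blood are found. They are listed by name as members of these complexes, and 33 of the 34 listed genes could be read, out of 18193 genes read in all. The samples were 3 IkL/L and 3 WT preparations of LSK cells sorted from C57BL/6 mice of 6 to 7 weeks. IkL/L mice are homozygous for a hypomorphic allele of Ikzf1, the gene of the transcription factor Ikaros, so that some functional Ikaros remains, and WT mice carry no mutation. Each IkL/L preparation pooled the cells of 2 mice and each WT preparation came from 1 mouse. Total RNA, 100 ng per sample, was amplified in a labelling reaction of 2 cycles and hybridised to Affymetrix arrays. The comparison asks whether the genes of the silencing machinery themselves differ in expression between IkL/L and WT progenitors.

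Polycomb proteins keep developmental genes silent through histone marks. Polycomb repressive complex 2 (PRC2) methylates lysine 27 of histone H3, with Ezh2 or Ezh1 as the catalytic subunit and Suz12 and Eed as the other core subunits. Polycomb repressive complex 1 (PRC1) ubiquitylates histone H2A through Rnf2 or Ring1 and is assembled around one of the Pcgf proteins, of which Bmi1 is known for its role in the self-renewal of haematopoietic stem cells. Canonical PRC1 binds the methyl mark through a Cbx protein and holds a Phc protein, whereas the other forms hold Rybp or Yaf2. Kdm6a and Kdm6b remove the methyl mark, and Bap1 with an Asxl protein (the PR-DUB complex) removes the ubiquitin mark.

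All values are log2 values made with RMA, 1 per probe set, and a gene was read from the probe set of this gene alone with the highest mean over the 6 arrays. A difference is IkL/L minus WT on the log2 scale, and a gene was called when its adjusted p in limma was under 0.05. The 6 arrays correlated at 0.986 to 0.995 with each other. Ikzf1 stood at 10.77, 10.85 and 10.93 on the IkL/L arrays, against 11.57, 11.59 and 11.44 on the WT arrays (-0.68, adjusted p = 0.0307 in limma). Where this probe set lies with respect to the mutated part of the gene was not examined. Among genes that mark LSK cells, Kit lay between 11.07 and 11.35 in IkL/L and between 11.21 and 11.50 in WT cells, and Cd34 between 12.07 and 12.21 and between 12.13 and 12.27. Procr, a marker of stem cells, was 8.38 to 9.24 in IkL/L and 7.80 to 8.39 in WT cells (0.69, adjusted p = 0.409 in limma), and Meis1 gave 0.03. Sca1, encoded by Ly6a, was not read, because no probe set belongs to it alone. Flt3, a marker of multipotent progenitors, was 9.56 to 10.05 in IkL/L and 10.31 to 10.97 in WT cells (-0.88, adjusted p = 0.132). Since the samples are bulk RNA, fewer cells of a type and less RNA per cell cannot be told apart. The 6 genes of stroma and endothelium averaged 5.18 to 5.40 on IkL/L arrays and 5.56 to 6.80 on WT arrays. One gene of that list, Col1a2, was 7.65 to 8.34 on the IkL/L arrays, whereas WT 1 had 10.12, WT 2 had 9.56 and WT 3 had 7.78. The B lineage markers averaged 5.41 to 5.97 on IkL/L arrays and 4.85 to 5.004 on WT arrays. Of the 4 measured, Ms4a1 was higher by 2.38 (adjusted p = 0.0165 in limma), whereas Cd79b gave 0.40, Cd79a 0.23 and Ebf1 -0.23. The 4 measured erythroid markers averaged 5.40 to 5.59 on IkL/L and 4.99 to 5.17 on WT arrays, with 1.65 for Car1 (adjusted p = 0.0507), 0.05 for Slc4a1, 0.08 for Hba-a1 and -0.14 for Alas2. The averages of mature myeloid markers (4.53 to 5.30 and 4.31 to 5.42) and T lineage markers (4.92 to 5.05 and 4.90 to 5.02) overlapped between the groups. Single myeloid markers went both ways, with 1.52 for S100a8, 0.48 for S100a9, -0.10 for Ltf, -0.13 for Itgam and -0.87 for C1qa. The part of these transcripts in the differences described here was not tested.

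None of the 33 measured genes was called, in either direction, against 0.989% of all genes (0.748% higher and 0.242% lower in IkL/L cells). The smallest adjusted p was 0.136, that of Cbx2. At an unadjusted p under 0.05 there were 5 genes with lower IkL/L means (Cbx2, Bmi1, Cbx6, Ezh2 and Pcgf6), or 15.2% against 5.35% of all genes, and 0 with higher means, against 5.83% of all genes. In 5 genes the 3 IkL/L values lay under all 3 WT values (Cbx2, Bmi1, Cbx6, Pcgf5 and Rnf2), again 15.2%, against 9.59% of all genes. No gene had its 3 IkL/L values above the WT values, against 7.62% of all genes. The 5 genes with groups apart all belong to PRC1, which holds 19 of the 33 measured genes. They are 26.3% of the PRC1 genes, against 9.59% of all genes.

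The differences were small and for the most part below 0. They were negative in 27 of the 33 genes, or 81.8%, against 55.5% of all genes, and the median was -0.12, against -0.02 over all genes. Among the 9232 genes with a mean of at least 6, 50.4% were negative with a median of -0.00. By array, the median distance of the 33 genes from their WT means was -0.10, -0.12 and -0.13 on IkL/L 1, 2 and 3, and 0.05, -0.01 and -0.01 on WT 1, 2 and 3. The median was thus below 0 on each IkL/L array, and without WT 1 the median difference of the 33 genes was -0.075. The median SD of a gene was 0.114 between IkL/L arrays and 0.167 between WT arrays, and over all genes 0.125 and 0.135. The 95% intervals of limma extended 0.209 to 0.521 to each side, and in 29 of the 33 genes the interval lay wholly within a 1.5-fold change either way. Bmi1, Cbx2, Ezh2 and Mtf2 were the exceptions, so that a change of that size is not excluded by the interval in these genes.

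**Figure D1:**
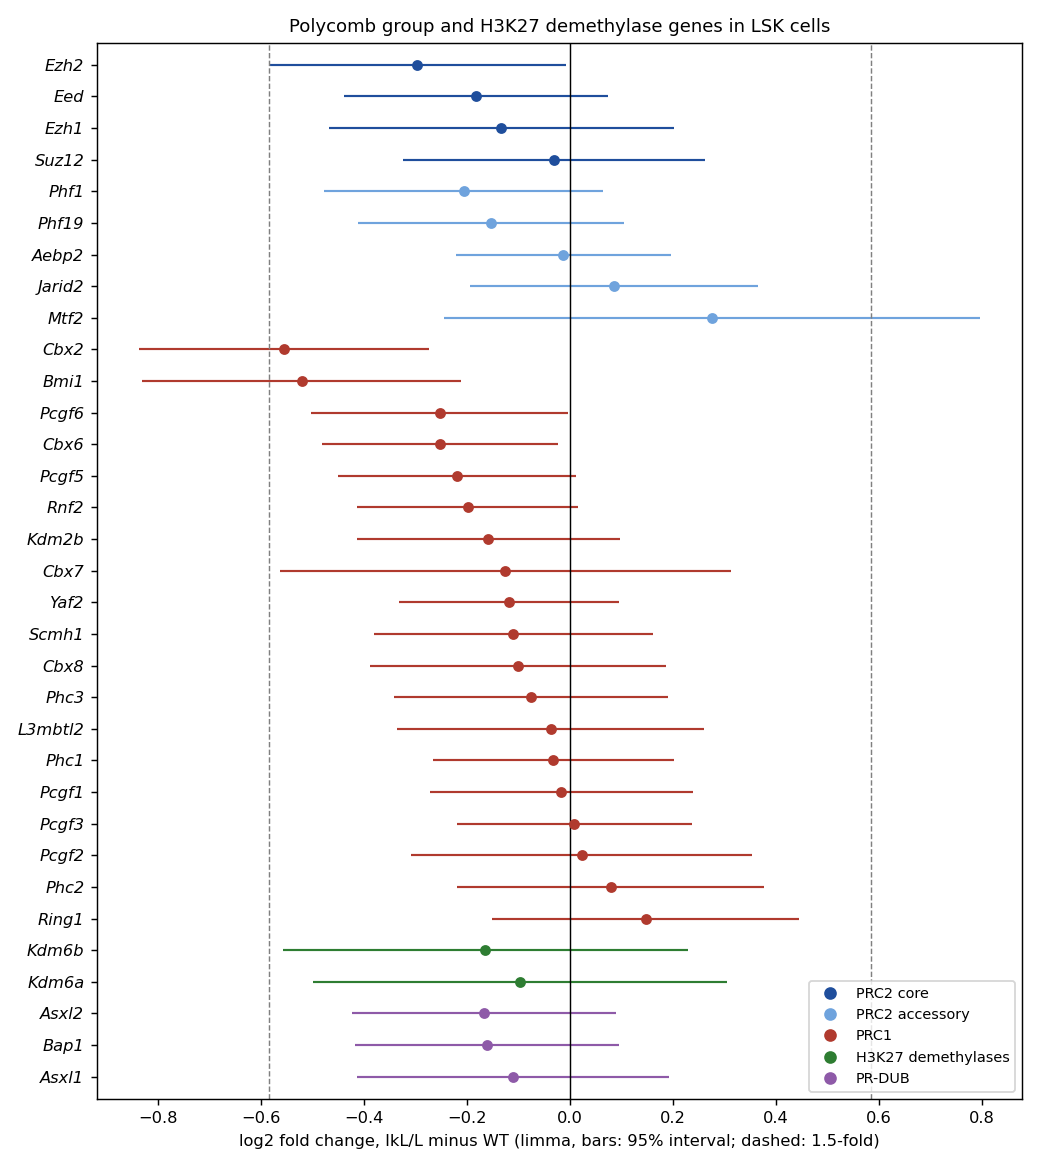
The horizontal axis gives the log2 difference, IkL/L minus WT, for the 33 genes, ordered by complex, with the 95% interval of limma as bars and dashed lines at a 1.5-fold change. In 27 genes the point lies below 0, and the intervals of Cbx2, Bmi1, Pcgf6, Cbx6 and Ezh2 do not reach 0.

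Of the 4 core genes of PRC2, none was called and all 4 differences were negative. Ezh2, the main methyltransferase of dividing cells, had values of 11.26, 11.00 and 11.12 on the IkL/L arrays, against 11.23, 11.59 and 11.44 on the WT arrays. IkL/L 1 lay above WT 1, so that the groups overlap by this pair of arrays. The means were 11.13 ± 0.13 in IkL/L and 11.42 ± 0.18 in WT cells (SD, n = 3), a difference of -0.30 with an interval from -0.59 to -0.01 and an adjusted p of 0.552 in limma. Without WT 2 it was -0.21. The array holds 1 probe set of Ezh2 alone, so that no other reading of this gene was at hand.

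Ezh1, the methyltransferase that is more prominent in resting cells, stood at 8.16, 8.35 and 8.04 in IkL/L, against 8.58, 8.10 and 8.27 in WT cells. Suz12, which holds the complex together, gave 11.08, 11.05 and 10.84 in IkL/L, against 10.80, 11.11 and 11.15 in WT cells. Eed, which recognises the methyl mark, gave 10.62, 10.33 and 10.50 in IkL/L, against 10.57, 10.67 and 10.76 in WT cells. In all 3 genes the groups overlap, with differences of -0.13 for Ezh1, -0.03 for Suz12 and -0.18 for Eed (adjusted p = 0.851, 0.967 and 0.714 in limma). The interval of Suz12 ran from -0.32 to 0.26. The 6 probe sets of Suz12 ranged from -0.14 to -0.03 and the 4 of Ezh1 from -0.13 to -0.08, but several of them, among them all of Ezh1 except the brightest, had means under the array medians and may hold only background signal.

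The 5 accessory genes of PRC2 had differences on both sides of 0. Mtf2, which like Phf1 and Phf19 is a Polycomb-like protein that guides PRC2 to chromatin, gave 11.39, 10.99 and 11.50 in IkL/L, against 11.24, 10.52 and 11.28 in WT cells. WT 2 stood well under every other array here, and the difference of 0.28 (interval from -0.24 to 0.80) was 0.03 without it. Its probe sets also disagreed, from -0.24 to 0.29. Phf1 gave 5.43, 5.44 and 5.19 in IkL/L, against 5.69, 5.41 and 5.58 in WT cells, a difference of -0.21 (adjusted p = 0.686 in limma) in which only WT 2 overlapped with the IkL/L values. The others gave -0.15 for Phf19, 0.09 for Jarid2 and -0.01 for Aebp2. Jarid2 and Aebp2 are DNA-binding partners in one form of PRC2.

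Within PRC1, 15 of 19 measured genes had a negative difference, or 78.9% against 55.5% of all genes. The median was -0.11, or -0.037 without WT 1. The 9 genes of PRC2 had a median of -0.13, or -0.031 over those with a mean of at least 6 and -0.063 without IkL/L 3. Bmi1, a Pcgf protein of canonical PRC1, had values of 10.01, 9.93 and 10.16 on the IkL/L arrays, against 10.43, 10.81 and 10.42 on the WT arrays. The lowest WT value exceeded the highest IkL/L value by more than the SD of either group, which was 0.11 in IkL/L around a mean of 10.03 and 0.23 in WT around a mean of 10.55 (n = 3 each). The difference was -0.52, with an interval from -0.83 to -0.21 and an adjusted p of 0.227 in limma. Its other probe set gave 8.77, 8.51 and 8.66 in IkL/L, against 9.15, 9.26 and 9.19 in WT cells, and a difference of -0.55 (adjusted p = 0.0841). Both readings therefore placed the IkL/L arrays under the WT arrays, by nearly the same amount.

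When the probe sets of each gene were averaged, Bmi1 was the 1 gene of the 33 that was called. It had -0.54 and an adjusted p of 0.0409 in limma, against 1.74% of all genes called, and 0.473% called lower, in that fit. The adjustment there was over 18193 genes, and not over 45037 probe sets as for the values above. Over all alternatives the adjusted p of Bmi1 ran from 0.0409 to 0.567 and its difference from -0.59 to -0.39, the smallest without WT 2. Without WT 1 it was -0.59. The part of the stromal transcripts on WT 1 and WT 2 in this difference was not tested. Leaving out 1 of these arrays kept the other, so that these fits cannot tell it. Commd3, a neighbour of Bmi1 on chromosome 2, was 8.26, 8.09 and 8.77 in IkL/L, against 8.19, 8.22 and 8.32 in WT cells (0.13, adjusted p = 0.875 in limma). Its other probe set gave -0.01.

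Cbx2, a chromodomain protein that reads the methyl mark for canonical PRC1, had values of 7.50, 7.73 and 7.80 in IkL/L, against 8.38, 8.09 and 8.22 in WT cells. The groups did not overlap, and the means of 7.68 ± 0.16 in IkL/L and 8.23 ± 0.14 in WT cells (SD, n = 3) differed by -0.56, with an interval from -0.84 to -0.27 (adjusted p = 0.136 in limma). It was -0.47 without IkL/L 1 and -0.63 without WT 2. Over all alternatives the adjusted p ran from 0.064 to 0.933. A further probe set of Cbx2 gave 3.23 to 3.59 in IkL/L and 3.39 to 3.48 in WT cells, under the medians of all arrays (4.79 to 4.88), where a level cannot be told from background, and a difference of -0.05. The reading of Cbx2 thus rests on 1 informative probe set.

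**Figure D2:**
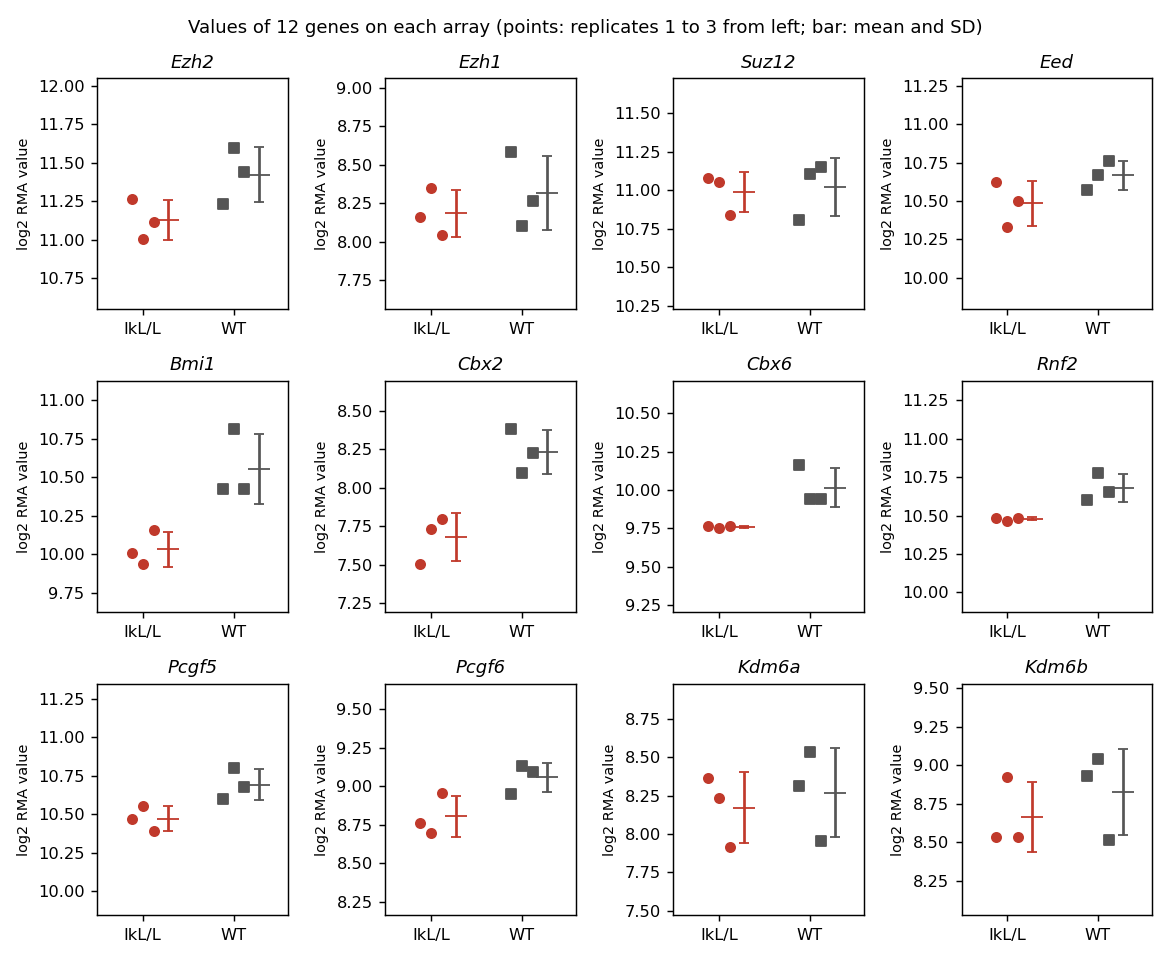
Expression of 12 genes (log2 RMA values, vertical axes) on the 3 IkL/L arrays (red circles) and the 3 WT arrays (grey squares), with mean and SD as bars. Each vertical axis spans 1.5 log2 units and does not start at 0. The values of Bmi1, Cbx2, Cbx6, Rnf2 and Pcgf5 do not overlap between the groups, whereas those of the 4 core genes of PRC2 and of both demethylases do.

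The other Cbx genes differed less. Cbx6 gave 9.77, 9.75 and 9.76 in IkL/L, against 10.16, 9.94 and 9.94 in WT cells. Its groups were apart, and the difference was -0.25 (interval from -0.48 to -0.02, adjusted p = 0.509 in limma), or -0.18 without WT 1. Its other probe set gave -0.18 with overlapping groups. Cbx8 and Cbx7 gave -0.10 and -0.13 (adjusted p = 0.869 and 0.896).

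Among the Pcgf genes, which define the kinds of PRC1, Pcgf5 and Pcgf6 stood next to Bmi1. Pcgf5 gave 10.47, 10.56 and 10.39 in IkL/L, against 10.60, 10.80 and 10.67 in WT cells, a difference of -0.22 (interval from -0.45 to 0.01, adjusted p = 0.593 in limma) with groups apart. A further probe set of Pcgf5, at 9.89, 9.62 and 9.72 in IkL/L and 10.12, 10.16 and 10.12 in WT cells, was also apart (-0.39, adjusted p = 0.242), and the dimmest gave -0.00. Pcgf6, the subunit of a variant PRC1 with L3mbtl2, gave 8.76, 8.70 and 8.95 in IkL/L, against 8.95, 9.13 and 9.09 in WT cells. IkL/L 3 and WT 1 nearly coincide, and the difference was -0.25 (adjusted p = 0.558). Pcgf1, Pcgf2 and Pcgf3 gave -0.02, 0.02 and 0.01. Pcgf2 lay under the array medians on all 6 arrays, the only gene of the 33 to do so, and its level cannot be told from background.

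Of the ubiquitin ligases, Rnf2 gave 10.49, 10.47 and 10.49 in IkL/L, against 10.60, 10.78 and 10.66 in WT cells. The groups were apart, and the difference of -0.20 (interval from -0.41 to 0.02) had an adjusted p of 0.605 in limma. Its second probe set, at 8.60, 8.46 and 8.57 in IkL/L and 8.64, 8.86 and 8.72 in WT cells, was apart too and also gave -0.20. Ring1, its paralogue, gave 0.15 with overlapping groups (adjusted p = 0.809).

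The Polyhomeotic genes, whose proteins polymerise canonical PRC1, gave -0.03 for Phc1, 0.08 for Phc2 and -0.08 for Phc3. Kdm2b, which brings variant PRC1 to unmethylated CG-rich DNA, gave 11.28, 11.44 and 11.18 in IkL/L, against 11.46, 11.57 and 11.35 in WT cells (-0.16, adjusted p = 0.751 in limma), with overlapping groups. The remaining genes, Yaf2 (-0.12), Scmh1 (-0.11) and L3mbtl2 (-0.04), overlapped as well. Rybp is the listed gene that could not be read, since both of its probe sets are also assigned to its pseudogene Rybp-ps. The brighter of them gave -0.17 with overlapping groups (adjusted p = 0.745 in limma). The dimmer gave 0.35 (adjusted p = 0.281) with groups apart, at 6.13, 5.90 and 6.07 in IkL/L, against 5.68, 5.65 and 5.70 in WT cells. Neither was counted.

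**Figure D3:**
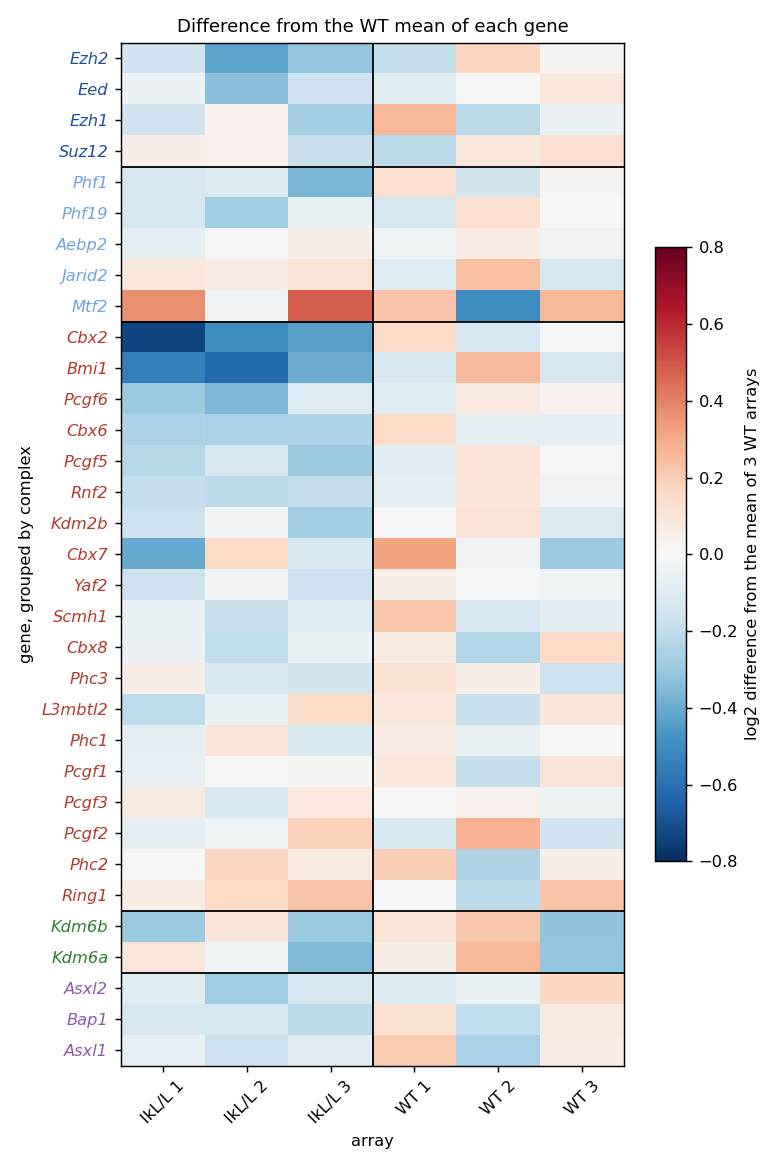
Difference of each array (horizontal axis) from the mean of the 3 WT arrays, in log2 units by colour, for the 33 genes (vertical axis, grouped by complex). Among the genes that are blue on all 3 IkL/L arrays are Cbx2, Bmi1, Cbx6, Pcgf5, Rnf2 and Ezh2, while Mtf2 is lowest on WT 2.

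Neither H3K27 demethylase was called. Kdm6a, on chromosome X, gave 8.36, 8.23 and 7.91 in IkL/L, against 8.31, 8.53 and 7.96 in WT cells. Kdm6b, a demethylase known for its induction by inflammatory signals, gave 8.53, 8.93 and 8.53 in IkL/L, against 8.93, 9.04 and 8.51 in WT cells. In both genes the groups overlap widely. The differences were -0.10 for Kdm6a (interval from -0.50 to 0.30, adjusted p = 0.915 in limma) and -0.16 for Kdm6b (interval from -0.56 to 0.23, adjusted p = 0.841). The dimmest probe set of Kdm6b went the other way, at 6.42, 7.54 and 5.70 in IkL/L, against 5.36, 5.76 and 6.16 in WT cells. Its difference of 0.79 (adjusted p = 0.661) came with an overlap of the groups, and IkL/L 2 stood apart as the highest array. The median of both genes was -0.13.

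The 3 genes of PR-DUB gave -0.17 for Asxl2, -0.16 for Bap1 and -0.11 for Asxl1. Asxl2 stood at 8.55, 8.37 and 8.52 in IkL/L, against 8.54, 8.59 and 8.81 in WT cells (adjusted p = 0.736 in limma). Bap1, the deubiquitylase, stood at 10.22, 10.21 and 10.14 in IkL/L, against 10.47, 10.16 and 10.42 in WT cells (adjusted p = 0.748), and WT 2 was the single array that overlapped with IkL/L. Other probe sets went up to 0.62 for Asxl2 and 0.29 for Asxl1, both dim and with overlapping groups.

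Related genes can replace one another in a complex, so 6 pairs were set against each other by the difference of their differences. This was -0.54 for Bmi1 against Pcgf2, -0.35 for Rnf2 against Ring1 and -0.16 for Ezh2 against Ezh1. It was -0.07 for Kdm6b against Kdm6a, -0.06 for Asxl2 against Asxl1 and 0.02 for Cbx8 against Cbx7. With 3 arrays per group an exact two-sided permutation test cannot give a p under 0.1, which Bmi1 against Pcgf2 reached. The adjusted p over the 6 pairs was 0.6 for Bmi1 against Pcgf2 and for Rnf2 against Ring1, and 1 for the others. Since Pcgf2 cannot be told from background, the first of these pairs carries little beyond Bmi1 itself.

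Over all 89 probe sets of the 33 genes, 0 were called, against 0.557% of the probe sets on the array, and 66, or 74.2%, had a negative difference, against 55.9% on the array. At an unadjusted p under 0.05, 7 of the 89 were lower and 0 higher, against 4.39% lower and 4.44% higher of all probe sets. Both probe sets of Bmi1 are among the 7. In 27 genes with more than 1 probe set, 42 of the 56 further probe sets had the sign of the brightest one, and in 15 of the genes all probe sets were negative. The median of the 56 further probe sets was -0.05, against -0.12 for the chosen ones. The widest ranges between probe sets of a gene were 0.96 for Kdm6b and 0.79 for Asxl2, and Bmi1 had one of the narrowest at 0.03.

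**Figure D4:**
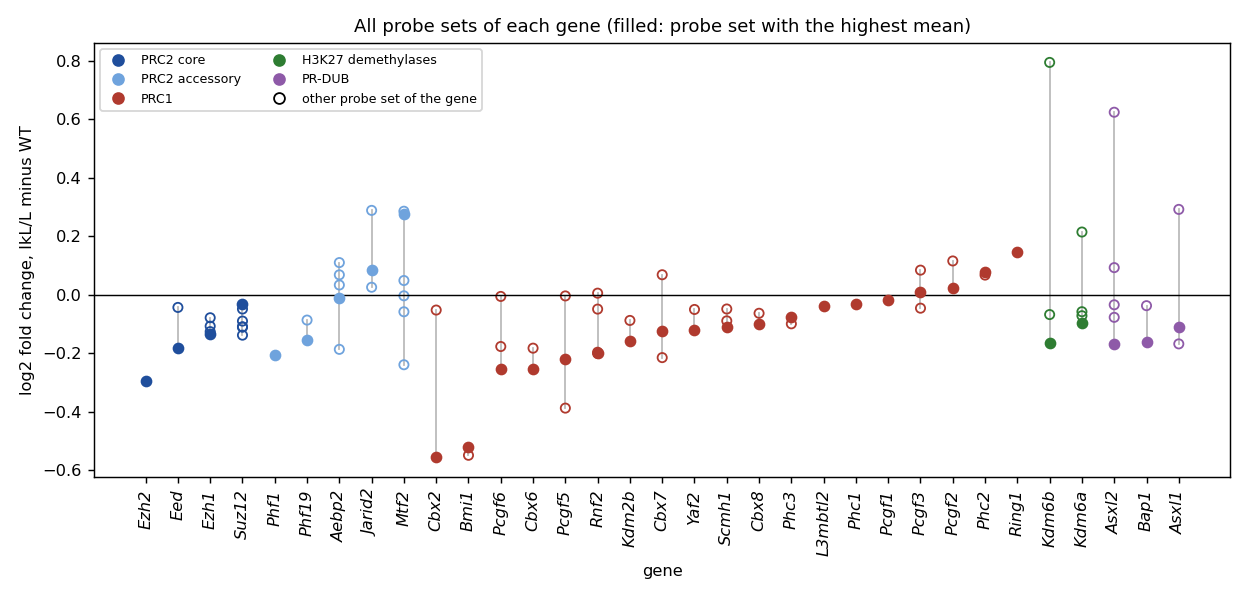
The vertical axis gives the log2 difference, IkL/L minus WT, for every probe set of the 33 genes (horizontal axis), filled for the probe set with the highest mean and open for the others. Both probe sets of Bmi1 lie near -0.5, whereas those of Cbx2, Mtf2, Kdm6b and Asxl2 differ by over 0.5 within the gene.

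Promoter windows of 300 bases, reaching 250 bases before and 50 after a start site, were taken from RefSeq (GRCm38.p6) for 29 of the 33 genes, 41 windows in all. Of the genes with non-overlapping groups, Cbx2 had no window and Pcgf5 had several. The windows of the 3 genes with non-overlapping groups and 1 annotated start each are shown, 5′ to 3′ on the strand of the gene, which was a choice made after their values were seen. Capitals mark AGGAA or its complement TTCCT, the core of the motif of Ikaros. The windows are chr2:18676768-18677067 (+) for Bmi1, chr15:79834284-79834583 (-) for Cbx6 and chr1:151500942-151501241 (-) for Rnf2.
Bmi1: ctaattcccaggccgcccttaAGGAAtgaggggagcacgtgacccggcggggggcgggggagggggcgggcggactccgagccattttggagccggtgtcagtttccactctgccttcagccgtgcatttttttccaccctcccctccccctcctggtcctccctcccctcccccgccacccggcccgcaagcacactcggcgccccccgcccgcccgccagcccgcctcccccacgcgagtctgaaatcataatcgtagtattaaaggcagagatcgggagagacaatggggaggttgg
Cbx6: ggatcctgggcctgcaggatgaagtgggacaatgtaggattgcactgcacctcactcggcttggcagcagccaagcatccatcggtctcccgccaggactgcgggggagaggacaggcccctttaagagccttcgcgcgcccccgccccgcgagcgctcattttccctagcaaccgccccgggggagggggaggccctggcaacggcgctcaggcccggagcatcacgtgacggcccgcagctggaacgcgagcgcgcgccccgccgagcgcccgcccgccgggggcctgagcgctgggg
Rnf2: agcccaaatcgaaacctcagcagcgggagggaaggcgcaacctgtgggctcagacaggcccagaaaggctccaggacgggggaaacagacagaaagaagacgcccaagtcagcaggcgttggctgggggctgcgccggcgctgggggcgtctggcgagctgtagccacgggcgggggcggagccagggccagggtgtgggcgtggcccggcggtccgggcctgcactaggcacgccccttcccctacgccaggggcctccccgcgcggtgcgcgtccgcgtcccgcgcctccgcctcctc
Bmi1 holds the motif 1 time and Cbx6 and Rnf2 0 times. Over the 41 windows of the 29 genes, 65.9% held it on either strand, against 66.7% of all 32851 windows. CG dinucleotides were numerous, with 23 in Bmi1, 31 in Cbx6 and 30 in Rnf2, a median of 23 over the 41 windows and a median of 7 over all windows. A match is a description of letters and not a bound site.

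Further genes of the Polycomb pathway, fixed as a list of partners and accessory subunits, were measured in 30 of 33 cases. None was called in limma, and 5 were lower and 0 higher at an unadjusted p under 0.05, or 16.7% lower against 5.35% of all genes. A negative difference was found in 25, or 83.3% against 55.5% of all genes, and the median was -0.13. The genes with the smallest p were Lcor, a corepressor whose locus also encodes a PRC2 accessory subunit, Auts2, a subunit of variant PRC1, Scml2 and Asxl3. Lcor gave 7.16, 7.11 and 6.86 in IkL/L, against 7.60, 7.88 and 7.45 in WT cells (-0.60, adjusted p = 0.164 in limma). Auts2 gave 4.79, 4.83 and 5.28 in IkL/L, against 5.86, 5.41 and 5.78 in WT cells (-0.72, adjusted p = 0.181), with IkL/L 1 and 2 close to their array medians, so that the size of this difference is uncertain. Scml2 gave -0.45 (adjusted p = 0.29) and Asxl3, under the array medians, -0.30 (adjusted p = 0.534). In all 4 the groups did not overlap, as in 6 of the 30 genes, or 20.0%, against 9.59% of all genes that were lower in this way. The remaining gene lower at an unadjusted p under 0.05 was Uty, on chromosome Y. It gave 5.11, 5.95 and 6.32 in IkL/L, against 6.52, 6.65 and 6.26 in WT cells (-0.68, adjusted p = 0.536 in limma). Per the methods mice of both sexes were used, and the part of sex in this difference was not tested.

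The list of H3K4 and H3K36 methyltransferase genes, which act against Polycomb silencing, was measured in 15 of 16 cases. It also holds genes of complex subunits that are not the methyltransferase itself. These are Ash2l (0.06), Rbbp5 (-0.10), Dpy30 (0.11) and Men1 (0.06). Of the 15 genes none was called in limma and 0 passed an unadjusted p under 0.05. With groups apart 2 were lower, or 13.3% against 9.59% of all genes. A negative difference was found in 11, or 73.3% against 55.5% of all genes, and the median was -0.11. Kmt2c gave -0.31, Kmt2a -0.24, Kmt2e -0.18 and Kmt2d -0.29 (adjusted p = 0.586, 0.623, 0.708 and 0.734 in limma). A small negative median was thus measured in this list as well, and no test set the lists against one another. Cell cycle genes are given here because Ezh2 and other PRC2 genes are known to be higher in dividing cells. Of 23 measured, 0 were called in limma and 0 passed an unadjusted p under 0.05. A negative difference was found in 12, or 52.2% against 55.5% of all genes, with a median of -0.01. The cell cycle genes of the smallest p were Top2a (-0.19), Mcm5 (-0.12), Mcm4 (-0.15) and Aurkb (0.19), with adjusted p of 0.741, 0.774, 0.78 and 0.832 in limma. The mean of the list ran from 10.27 to 10.51 on IkL/L arrays and from 10.32 to 10.53 on WT arrays, and the part of the cell cycle in the values of Ezh2 was not tested.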

How the data were processed

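LSK RNA of 3 IkL/L and 3 WT samples was hybridised to Affymetrix whole-genome mouse arrays. The deposited values are log2 expression values that the authors made with RMA in R 2.8, according to the submitters' processing notes, and per the methods they were normalised together with thymocyte arrays that were not used here. They were not normalised again, and no low values were removed. Of 45037 probe sets, 34945 had 1 gene in the platform annotation, 932 had several and 9160 were not listed. Symbols were updated through Entrez identifiers to RefSeq (GRCm38.p6) for 34741. Each of 18193 genes was read from its single-gene probe set with the highest mean over the 6 arrays. Genotype was fitted on all probe sets with limma 3.58.1 (lmFit and eBayes, R 4.3.3), without a replicate block, and p-values were adjusted over all 45037 probe sets by the Benjamini-Hochberg method. Pairs of genes were compared by exact two-sided permutation tests.

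Every gene of the list was named with its difference. Values per array were given for the 4 core genes of PRC2, both demethylases, the 12 genes with the smallest p and any gene called, and of each further list up to 4 genes of the smallest p were named. Other values per array (Mtf2, Uty, Commd3 and single probe sets) were chosen after they were seen. Further genes of those lists (Uty, Ash2l, Rbbp5, Dpy30 and Men1) were also named after their values were seen. The members and lists were chosen with earlier results of these data known. Alternatives were median centring, a second quantile normalisation, filters on dim probe sets, weights for each array, robust eBayes moderation with a trend on intensity, the second brightest probe set, averaging the probe sets of a gene, a replicate block and leaving out each array. In these, p-values were adjusted within each fit, over 18193 genes for the average and over the probe sets kept for the filters. The fit was tested on simulated data. The number of arrays limits the precision.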

Additional observations from a re-analysis of the deposited data

How the results depend on the processing

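With 3 arrays per group, 15 alternatives were run, and in all of them but the average over the probe sets of a gene, which called 1 gene (Bmi1), limma called 0 of the 33 genes. Leaving out an array, 0 were called each time. The 5 genes lower at an unadjusted p under 0.05 became 3 with median centring, with either filter on dim probe sets, with array weights and with the mean of probe sets, and 2 with the second brightest probe set. They were 2 to 4 when an array was left out. No gene was higher at that p when an array was left out. The genes below 0 numbered 24 to 27 when an array was left out. The sample titles number the arrays and name no pairing. Deviations of same-numbered arrays correlated at 0.008, -0.112 and 0.079, which does not decide whether they were handled as pairs. With the replicate block 0 genes were called, 2 were lower at an unadjusted p under 0.05, and the adjusted p was 0.386 for Bmi1 and 0.31 for Cbx2.

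The median over the 33 genes was -0.14 with a second quantile normalisation, -0.14 with array weights, -0.085 with the mean of probe sets, -0.072 with the second brightest probe set and -0.14 to -0.075 without an array. The median of PRC2 was -0.031 with a mean of at least 6, and -0.14 to -0.063 without an array. That of PRC1 was -0.14 with array weights and -0.15 to -0.037 without an array. That of PR-DUB was 0.0042 with the mean of probe sets and -0.24 to -0.086 without an array, and that of the demethylases -0.29 to -0.011. Among the pairs, without an array, Ezh2 against Ezh1 ran from -0.39 to 0.029, Cbx8 against Cbx7 from -0.14 to 0.25, Kdm6b against Kdm6a from -0.17 to 0.095 and Asxl2 against Asxl1 from -0.21 to 0.047. With the mean of probe sets, Kdm6b against Kdm6a was 0.19 and Asxl2 against Asxl1 0.083.

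The sign of single genes changed in 36 of 483 values, in 14 genes that were not called, whereas 19 genes kept theirs. With array weights Suz12 was 0.038 and Phc2 -0.000498, with median centring Aebp2 was 0.0041 and Pcgf1 2.9e-05, and with a second quantile normalisation Pcgf3 was -0.031. With the mean of probe sets Aebp2 was 0.0022, Kdm6b 0.19, Asxl1 0.0042 and Asxl2 0.087, and with the second brightest probe set Aebp2 was 0.033, Mtf2 -0.24 and Cbx7 0.068. Without an array Suz12 ran from -0.14 to 0.044, Aebp2 from -0.042 to 0.017, Pcgf1 from -0.11 to 0.039, Pcgf2 from -0.058 to 0.16, Pcgf3 from -0.025 to 0.075, Cbx7 from -0.27 to 0.032, Phc1 from -0.10 to 0.012, Phc2 from -0.042 to 0.18, L3mbtl2 from -0.13 to 0.047 and Kdm6a from -0.25 to 0.035. The cause was not tested in any of these.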
